A study of Mus musculus with 20 samples.

Results

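Transcripts of 10 genes of the immediate early class were followed in C2C12 myotubes, multinucleated muscle cells grown from an established mouse myoblast line. The genes are the AP-1 subunits Fos, Fosb, Fosl1, Fosl2, Jun and Junb, the zinc finger factor Egr1, the nuclear protein Ier2, the stress-responsive factor Atf3 and the growth regulator Myc. They were chosen by symbol from the 26722 genes of the count table, and each of the 10 had 1 row and passed the low-count filter that left 14605 genes for testing.

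The myotubes had been differentiated for 5 days and were exposed for 16 h to agents acting on MuSK, the muscle receptor tyrosine kinase through which nerve-derived agrin builds the neuromuscular synapse. The control cells received 7.7 nM of b12, a human IgG4 negative control antibody. A group called bivalent here received 7.7 nM of 13-3B5 in the same IgG4 format, which is labelled as activating MuSK. The agrin group received 0.1 nM neural agrin together with 7.7 nM b12. In the remaining groups the b12 given with 0.1 nM agrin was replaced by 7.7 nM of a monovalent antibody labelled as inhibiting, either 13-3B5xb12 or 11-3F6xb12. Each group had 4 biological replicates of this 1 cell line. Whether these were separately differentiated cultures is not stated, so the p-values measure only the spread between these libraries, which may be technical.

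Immediate early genes are switched on by growth factor, stress and calcium signals through transcription factors already present in the cell, such as SRF with its ternary complex partners and CREB. Their messenger RNAs rise and decay again quickly after a stimulus, so RNA taken many hours later reads the sustained level and not the first burst. Fos and Jun proteins pair through leucine zippers to form AP-1, which binds DNA and controls genes of growth, stress and differentiation. Jun proteins can pair with each other, whereas Fos proteins need a Jun partner.

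The 20 libraries held 18424881 to 23343903 counts each, with counts in 16261 to 18259 genes. Mitochondrial genes took 27.9% to 39.1% of the counts. The myotube label held for the cells: Myog, the differentiation factor myogenin, was at 495 to 669 CPM (counts divided by library size after scaling between libraries) in all 20 libraries. Markers of 4 other sources were also summed in each library. Fibroblast markers summed to 701 to 1024 CPM and markers of myoblasts and dividing cells to 118 to 218 CPM, where 8 myotube markers summed to 9340 to 11504 CPM. Most of the fibroblast sum was Dcn, at 672 to 998 CPM. Pdgfra was at 11.6 to 22.6 CPM, Lum at 4.93 to 13.7 CPM and Thy1 at 0 in 16 libraries. Blood markers summed to at most 0.502 CPM, and liver markers to at most 19.0 CPM, a value reached in agrin replicate 3. In an earlier analysis of the same libraries, agrin with 13-3B5xb12 replicate 1, which had the fewest genes with counts, and control replicate 2 stood apart. That analysis also split the libraries into replicates 1 and 2 against replicates 3 and 4 of every treatment. Values without the 2 libraries that stood apart are given beside the differences in Fos, Myc, Fosl2, Jun and Junb that use them.

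The start regions of 3 members, the AP-1 genes Fos, Jun and Junb, are printed here with short control elements marked. In the RefSeq promoter table for GRCm38.p6, 6 of the 10 genes were scanned (Atf3, Fos, Fosb, Fosl2, Jun and Junb). No entry was used for Fosl1, Ier2 and Myc, and Egr1 was left out of the scan, so the motif counts do not cover it. Each sequence is the 150 bases before the annotated start, 5′ to 3′ on the gene's strand. Capitals mark TGACG, the core of the cAMP response element bound by CREB and ATF factors, TGACATCA, an AP-1-like element, and TATAAA, the TATA box.
Fos, chr12:85473740-85473889, plus strand: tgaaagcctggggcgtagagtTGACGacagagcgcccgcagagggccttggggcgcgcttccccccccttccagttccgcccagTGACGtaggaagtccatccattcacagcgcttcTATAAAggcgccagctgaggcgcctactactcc
Jun, chr4:95052223-95052372, minus strand: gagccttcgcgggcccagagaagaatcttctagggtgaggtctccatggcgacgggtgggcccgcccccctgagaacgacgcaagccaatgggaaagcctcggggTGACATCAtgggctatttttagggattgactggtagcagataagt
Junb, chr8:84978749-84978898, minus strand: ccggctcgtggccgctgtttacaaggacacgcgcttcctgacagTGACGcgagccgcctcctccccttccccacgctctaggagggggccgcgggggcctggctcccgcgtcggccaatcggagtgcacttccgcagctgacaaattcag
Fos carried 2 copies of TGACG and a TATAAA beginning 33 bases before the start, Jun carried TGACATCA, and Junb carried 1 TGACG. Among the scanned genes not printed, Atf3 and Fosb carried 1 TGACG each, and Fosl2 carried none of the marked elements. Motifs were searched on both strands of 300 bases, from 250 before to 50 after the start. TGACG was present in 4 of the 6 scanned promoters and in 20.8% of the 32851 promoters of the table. TGACATCA was in 1 of the 6 and in 3.62% of the table, and TATAAA in 2 of the 6 and in 13.6%. In Junb the TATAAA lies beyond the printed bases, at base 1 after the start used in the promoter table, and so before the gene boundary given below. The full response element TGACGTCA, which contains TGACG, the AP-1 element TGANTCA and the serum response factor CArG box were in 0 of the 6 windows, against 1.79%, 7.81% and 1.63% of the table. These letters describe the windows only.

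Junb, which forms AP-1 dimers and restrains proliferation in many cell types, was the most abundant of the 10 transcripts. It measured 324 ± 31.7 CPM over all libraries (SD, n = 20), above 98.1% of the genes tested. Per kilobase of exon, the scale on which genes can be compared, Junb was at 141 ± 13.8, close to its relative Jund at 135 ± 9.37 and far above Jun at 19.4 ± 2.12 (CPM per kilobase, SD, n = 20). Junb and Jund overlapped in range. Of the summed length-scaled signal of the Jun family, Junb gave 47.7 ± 2.12%, Jund 45.8 ± 2.09% and Jun 6.57 ± 0.670%. Jun itself was the least abundant Jun family transcript in every library, at 5.59% to 8.26% of the sum.

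Within the Fos family, Fosl2 (Fra-2), a subunit with no strong transactivation domain, was the leading transcript. Its share of the length-scaled family sum was 75.0 ± 4.59% (65.1% to 83.6%). Fos gave 20.8 ± 5.01%, Fosl1 (Fra-1) 3.55 ± 2.15% and Fosb 0.639 ± 0.534% (SD, n = 20). In CPM per kilobase the order was Fosl2 at 5.60 ± 0.780, Fos at 1.56 ± 0.457, Fosl1 at 0.271 ± 0.168 and Fosb at 0.0487 ± 0.0432. Fosl2 lay above Fos, and Fos above Fosl1, in all libraries. Fosb and Fosl1 were near the floor, which was set here at 3 counts per library or 0.125 to 0.161 CPM and was not measured. Fosb had 0 to 24 counts per library, was at 0 in 4 libraries and at or under 3 counts in 7. Fosl1 had 1 to 26 counts and was at or under 3 in 2 libraries.

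**Figure D1:**
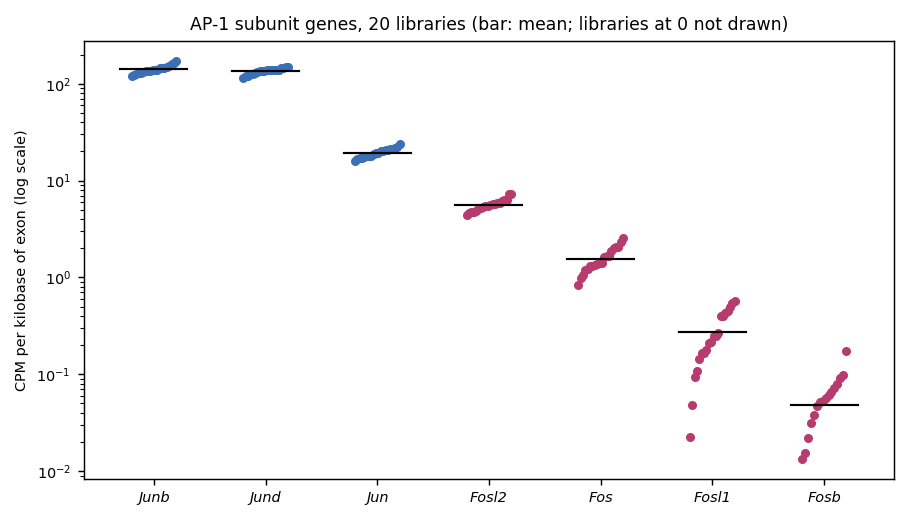
AP-1 subunit transcripts in CPM per kilobase of exon on a log axis, 1 point per library (20 per gene, sorted by value) with a bar at the mean; blue points are Jun family and magenta points Fos family genes, and the 4 libraries with 0 counts of Fosb are not drawn. Junb and Jund share the top of the plot near 141 and 135, and Fosb lies lowest with a mean of 0.0487.

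The members outside AP-1 were at low to intermediate levels. Ier2, a short-lived nuclear protein induced with Fos and Jun, measured 9.26 ± 1.58 CPM per kilobase, and Atf3, a repressor induced by stress, 4.89 ± 1.00. Myc stood at 1.55 ± 0.288 and Egr1 at 0.842 ± 0.168 (SD, n = 20). Egr1, a classical readout of ERK signalling, had 58 to 117 counts per library, and Myc 61 to 136. From high to low the 10 genes ran Junb, Jun, Ier2, Fosl2, Atf3, Fos, Myc, Egr1, Fosl1 and Fosb per kilobase of exon. Fos and Myc, at 1.56 and 1.55, could not be ordered, and per kilobase of the longest transcript Myc came first (1.81 against 1.75). Those lengths put Fosl2 at 8.30 in place of 5.60, still between Ier2 and Atf3.

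Some rows can share reads with genes on the opposite strand, since the use of strand in counting is not given in the sources used here. The span of Fosl1 (chromosome 19, 5447547 to 5455946, GRCm38) overlaps that of Ccdc85b by 2767 bases. Jun (chromosome 4, 95049034 to 95052222) overlaps Junos by 689, and Junb (chromosome 8, 84974484 to 84978718) overlaps Prdx2 by 351. These are overlaps of whole genes with their introns, and the overlap of exons was not measured. Ccdc85b was counted at 5.05 ± 0.983 CPM, above Fosl1 at 0.551 ± 0.342 (SD, n = 20), so the small Fosl1 values are uncertain. The other members lie at chromosome 12, 85473890 to 85477273 (Fos), chromosome 7, 19302696 to 19310051 (Fosb), chromosome 5, 32135801 to 32157842 (Fosl2), chromosome 18, 34859823 to 34864984 (Egr1), chromosome 8, 84661331 to 84662852 (Ier2), chromosome 1, 191170296 to 191218039 (Atf3), and chromosome 15, 61985391 to 61990374 (Myc).

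Between treatments, none of the 10 genes passed the adjusted threshold of 0.05 in any of 9 comparisons (edgeR quasi-likelihood test, Benjamini-Hochberg adjustment over 14605 genes). The share of all genes past it was also 0% in each comparison. DESeq2's Wald test likewise called 0 members. With the replicate number as a block, 2 of all genes passed for 11-3F6xb12 against b12 beside agrin, neither of them a member. At an unadjusted p under 0.05 without a replicate block there were 9 gene and comparison pairs, which belonged to Fos, Myc and Fosl2 only. Most of these comparisons share libraries and are not independent of each other. In bulk RNA, fewer cells of a type and less RNA per cell cannot be told apart.

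**Figure D2:**
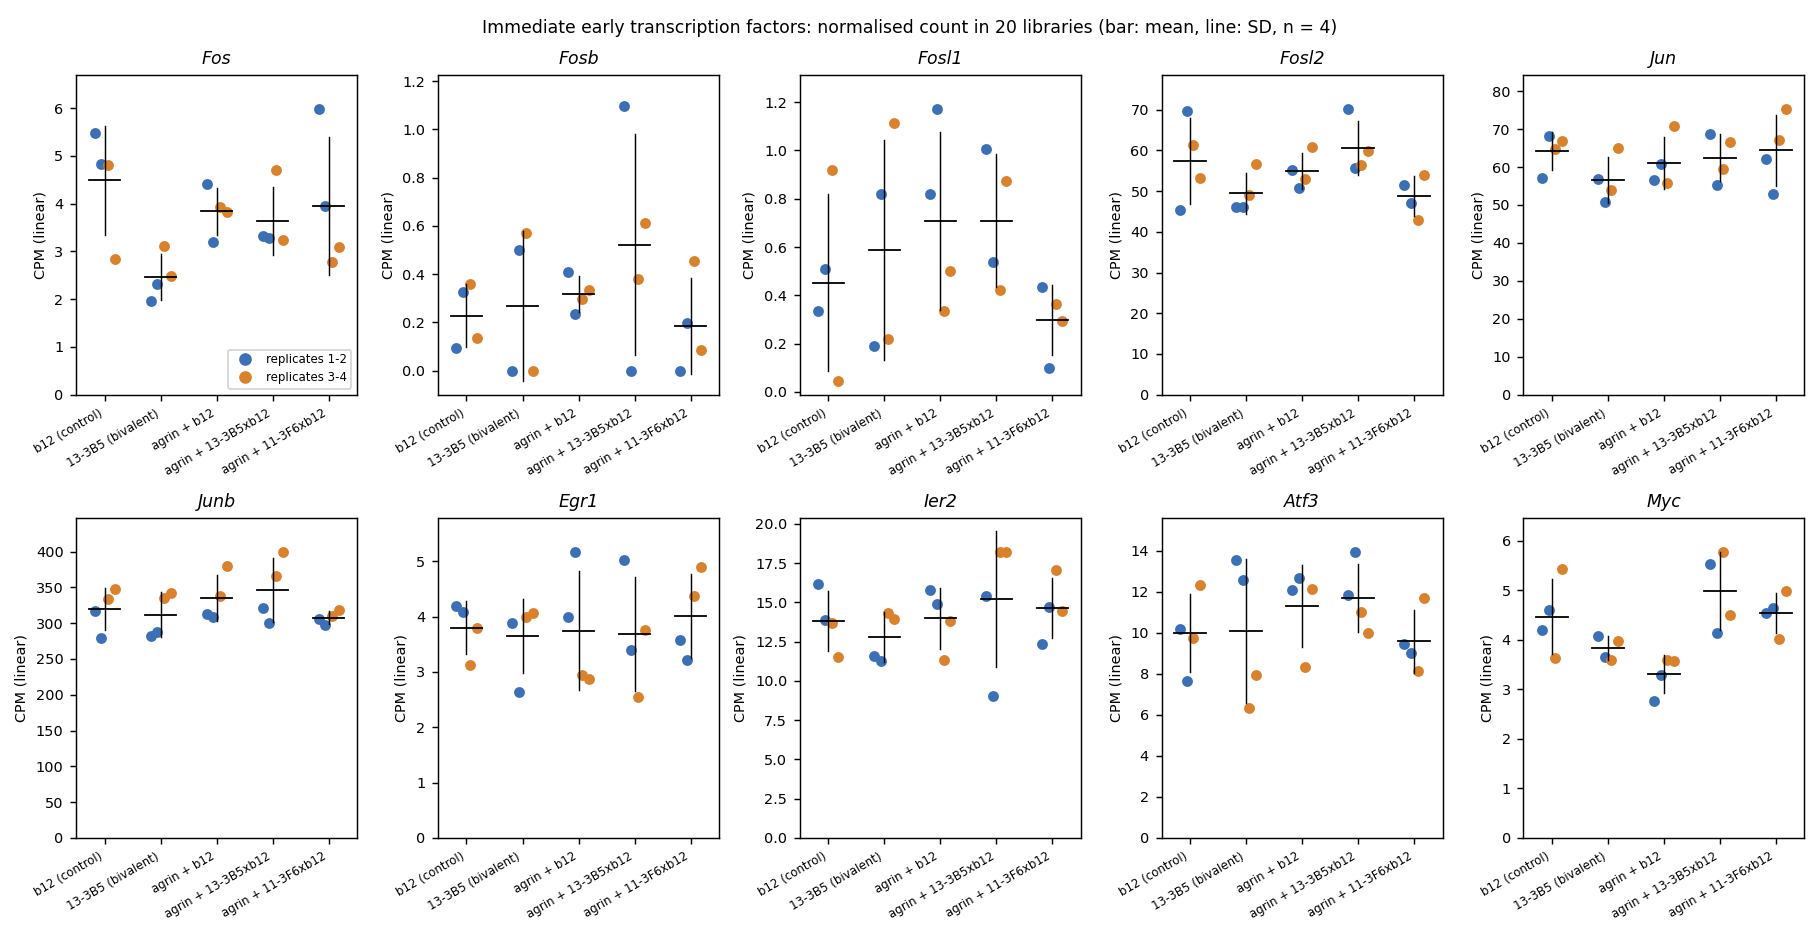
Normalised count (CPM, linear axis, 1 panel per gene) of the 10 genes in 20 libraries, 1 point per library, with the mean (bar) and SD (line) of the 4 replicates of each treatment; blue points are replicates 1 and 2 and orange points replicates 3 and 4. Fos is lowest with bivalent 13-3B5 (mean 2.47) and Myc lowest with agrin (mean 3.31), and the Fosb panel shows the libraries at 0.

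Fos, the prototype immediate early gene, was lower with bivalent 13-3B5 than in the control before adjustment. Fos measured 5.48, 4.83, 4.81 and 2.85 CPM in control replicates 1 to 4, and 1.97, 2.32, 3.12 and 2.48 CPM in the bivalent group. The groups overlap, because control replicate 4 lies below bivalent replicate 3, although each bivalent library was below the control library of its number. The means were 4.49 ± 1.14 and 2.47 ± 0.480 CPM (SD, n = 4 each). The fitted fold was 0.552 (95% interval 0.381 to 0.800), a log2 change of -0.86 ± 0.26 (SE), with an unadjusted p of 0.00275 and an edgeR adjusted p of 0.999. Bivalent against control had 1 of 10 members at an unadjusted p under 0.05, against 2.77% of all genes. With the replicate number as a block there were 2, Fos and Jun, against 3.96% of all genes. No member had separate groups there, and 1.88% of all genes did. Without control replicate 2 and agrin with 13-3B5xb12 replicate 1 the log2 change was -0.82 (unadjusted p = 0.00741 by edgeR). Leaving out each library in turn gave log2 changes from -1.02 (without control replicate 4) to -0.75 (without control replicate 1), and the adjusted p from edgeR stayed at 0.900 or above.

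In the agrin group Fos measured 4.41, 3.19, 3.92 and 3.83 CPM. With agrin and 13-3B5xb12 it measured 3.33, 3.28, 4.71 and 3.23 CPM, and with agrin and 11-3F6xb12 5.99, 3.96, 2.78 and 3.09 CPM. All bivalent libraries lay below all agrin libraries and below all libraries of agrin with 13-3B5xb12. The log2 difference of Fos was -0.63 ± 0.26 against agrin (SE, unadjusted p = 0.0225 and adjusted p = 1.00 by edgeR) and -0.56 ± 0.26 against agrin with 13-3B5xb12 (unadjusted p = 0.0431, adjusted p = 0.971; log2 -0.60 without agrin with 13-3B5xb12 replicate 1). In these comparisons 2.39% and 4.33% of all genes had an unadjusted p under 0.05, and 2.38% and 3.25% had no overlap. Both use the same 4 bivalent libraries. Agrin itself left Fos at a fitted fold of 0.855 of the control (95% interval 0.595 to 1.23), and over the 5 treatments together Fos had an unadjusted p of 0.0399.

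Myc, the transcription factor that drives ribosome production and cell growth, was lowest with agrin. Myc measured 2.77, 3.29, 3.58 and 3.58 CPM in agrin replicates 1 to 4 and 4.20, 4.60, 3.63 and 5.43 CPM in the control. The groups do not overlap, by a narrow margin between control replicate 3 and the upper agrin libraries. The fitted log2 change was -0.43 ± 0.20 (SE, unadjusted p = 0.0398, edgeR adjusted p = 1.00). Myc was the 1 of 10 members at an unadjusted p under 0.05 in agrin against control, where 2.85% of all genes were, and the 1 member without overlap, where 1.72% of genes had none. Without the libraries that stood apart the log2 change of Myc was -0.42, with an unadjusted p of 0.0702.

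The agrin libraries with a monovalent antibody held more Myc than those with b12, again before adjustment only. Myc measured 5.53, 4.14, 5.77 and 4.50 CPM with 13-3B5xb12 and 4.54, 4.65, 4.01 and 4.98 CPM with 11-3F6xb12. Every one of these libraries exceeded every agrin library. The log2 difference from agrin was 0.59 ± 0.20 for 13-3B5xb12 (SE, unadjusted p = 0.00618, edgeR adjusted p = 0.999) and 0.46 ± 0.20 for 11-3F6xb12 (unadjusted p = 0.0305, adjusted p = 1.00). In those comparisons 3.83% and 3.33% of all genes had an unadjusted p under 0.05, and 2.31% and 2.90% had no overlap. For 13-3B5xb12 the log2 difference was 0.54 without both libraries that stood apart (unadjusted p = 0.0213 by edgeR). Together with agrin against control, they all rest on the same 4 agrin libraries. In the bivalent group Myc measured 4.08, 3.64, 3.60 and 3.98 CPM, narrowly above all agrin libraries and below all libraries with 13-3B5xb12. No overlap was seen in 2.38% and 3.25% of all genes in these comparisons. Neither reached an unadjusted p of 0.05 by edgeR. The log2 difference was 0.21 ± 0.20 against agrin (SE, unadjusted p = 0.307) and -0.38 ± 0.20 against agrin with 13-3B5xb12 (SE, unadjusted p = 0.0651). Over the 5 treatments Myc had an unadjusted p of 0.0521.

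The monovalent antibodies differed in Fosl2 before adjustment. Fosl2 measured 70.2, 55.8, 56.3 and 59.9 CPM with agrin and 13-3B5xb12, and 51.5, 47.1, 42.9 and 53.9 CPM with agrin and 11-3F6xb12. The groups do not overlap, which held for 2.72% of all genes. The log2 difference, 11-3F6xb12 minus 13-3B5xb12, was -0.31 ± 0.11 (SE, unadjusted p = 0.00814, edgeR adjusted p = 0.992), and 4.22% of genes had an unadjusted p under 0.05. Without agrin with 13-3B5xb12 replicate 1, the highest of these libraries, it was -0.23. Fosl2 measured 45.3, 69.8, 61.4 and 53.1 CPM in the control, where its range contained those of the bivalent and agrin groups. It measured 46.1, 46.0, 49.0 and 56.7 CPM in the bivalent group and 55.1, 50.7, 52.9 and 61.0 CPM in the agrin group. Fosl2 was also lower before adjustment with bivalent 13-3B5 than with agrin and 13-3B5xb12 (log2 -0.29 ± 0.11, SE, unadjusted p = 0.0120 by edgeR). Without agrin with 13-3B5xb12 replicate 1 this was -0.21, with an unadjusted p of 0.0640. With agrin and 11-3F6xb12 it was lower than in the control (log2 -0.23 ± 0.11, SE, unadjusted p = 0.0420 by edgeR), a comparison in which 3.25% of all genes had an unadjusted p under 0.05, 2.16% had no overlap and 0 of 10 members had none. Without control replicate 2, the highest control library, the log2 difference was -0.12, with an unadjusted p of 0.254. Over the 5 treatments Fosl2 had an unadjusted p of 0.0324, so 2 of 10 members, Fos and Fosl2, were under 0.05 there, against 2.25% of all genes.

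**Figure D3:**
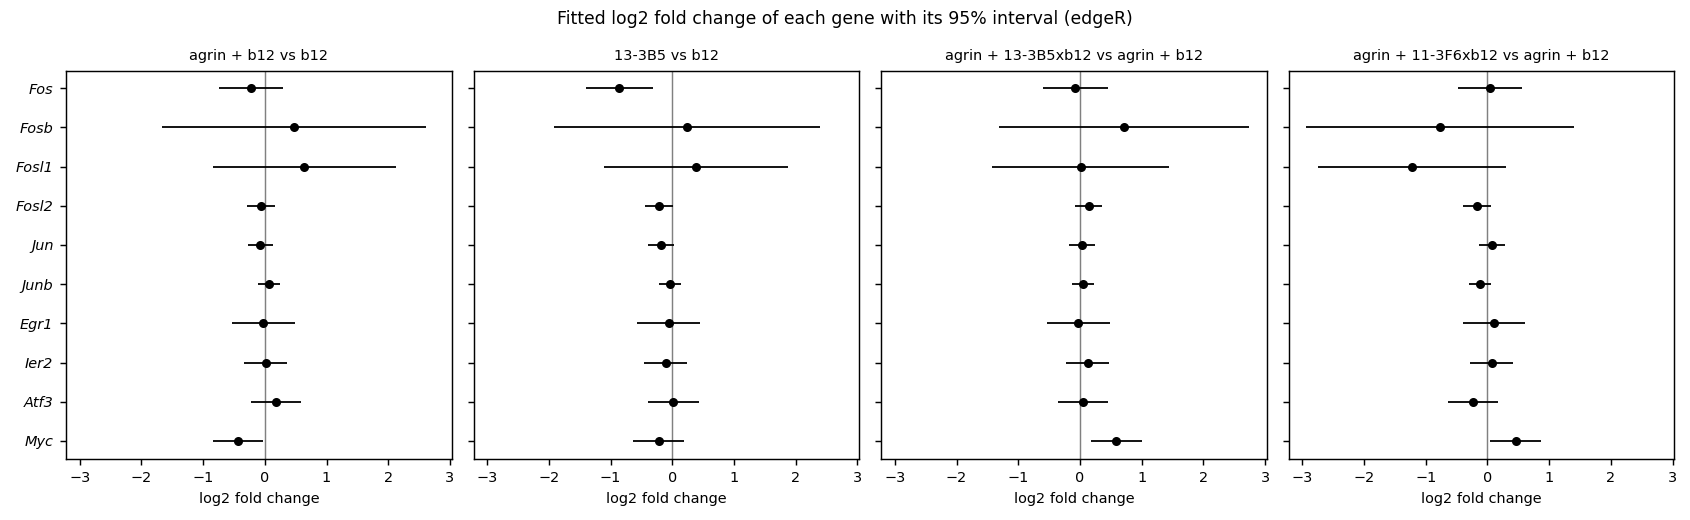
Fitted log2 fold change of each gene with its 95% interval in 4 comparisons named above each panel; the vertical line is no change. The intervals of Jun, Junb and Fosl2 are narrow, those of Fosb and Fosl1 are the widest, and Fos with bivalent 13-3B5 (-0.86) and Myc in 3 panels lie off the line before adjustment.

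The other members give limits and no calls. Over the 9 treatment comparisons without a replicate block, the 95% intervals of the fold change of Jun stayed within 0.763 and 1.22. Those of Junb stayed within 0.782 and 1.23. Jun measured 57.1, 68.1, 64.8 and 66.8 CPM in control replicates 1 to 4 and 56.7, 50.8, 54.0 and 65.1 CPM in the bivalent group. Each bivalent library was below the control library of its number, although the groups overlap. The log2 difference of Jun was -0.18 ± 0.10 (SE, unadjusted p = 0.0893) and with the replicate block -0.19 ± 0.08 (SE, unadjusted p = 0.0339, adjusted p = 0.987 by edgeR). Without control replicate 2 and without the block it was -0.15. With the block, Junb was lower with 11-3F6xb12 than with 13-3B5xb12 beside agrin (log2 -0.16 ± 0.06, SE, unadjusted p = 0.0106, adjusted p = 0.607 by edgeR). It was also lower with bivalent 13-3B5 than with agrin and 13-3B5xb12 (log2 -0.15 ± 0.06, SE, unadjusted p = 0.0181, adjusted p = 0.835 by edgeR). In these comparisons 6.19% and 5.55% of all genes had an unadjusted p under 0.05 with the block. For Egr1 the outer bounds were 0.675 and 1.55, for Ier2 0.660 and 1.40, and for Atf3 0.618 and 1.55. Egr1 had nearly the same mean in all 5 treatments, from 3.65 ± 0.676 CPM with bivalent 13-3B5 to 4.01 ± 0.760 CPM with agrin and 11-3F6xb12 (SD, n = 4 each), and an unadjusted p of 0.982 over the treatments. The outer bounds for Fosl1 were 0.148 and 4.39 and those for Fosb 0.0816 and 9.75, so in these 2 genes changes of several fold would not have been detected between these groups. For Fos they were 0.381 and 1.56, and for Myc 0.557 and 2.00.

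The signs of the members' fitted changes are given for each comparison. For agrin against control 5 of 10 were higher and 5 lower, with a median log2 change of -0.00, where 50.1% of all genes were higher. Bivalent against control gave 3 higher and 7 lower (median -0.09), again with 50.1% of all genes higher. Bivalent against agrin gave 1 higher and 9 lower (median -0.14, 50.2% of all genes higher). These are the fitted signs of the members, of which none passed the adjusted threshold.

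When 13-3B5xb12 replaced b12 beside agrin, 8 of 10 members were higher (median 0.05, 48.5% of all genes higher), and with 11-3F6xb12 5 were (median -0.04, 49.0% of all genes higher). Against control, agrin with 13-3B5xb12 gave 7 higher and 3 lower (median 0.13, 47.7% of all genes higher). In that comparison 0 of 10 members and 2.39% of all genes had an unadjusted p under 0.05, and 0 members and 1.64% of genes had no overlap. Agrin with 11-3F6xb12 gave 4 higher and 6 lower than control (median -0.06, 50.8% of all genes higher), and 3 higher and 7 lower than agrin with 13-3B5xb12 (median -0.15, 51.2% of all genes higher). Bivalent 13-3B5 against agrin with 13-3B5xb12 gave lower fitted values for all 10 members (median -0.26, median SE 0.20), where 50.8% of all genes were higher. Among them Egr1 was at -0.01 ± 0.25 (SE), and at 0.01 with the replicate block. Fosb and Fosl1 had SEs of 1.01 and 0.71. The median over all genes tested lay between -0.01 and 0.00 in the 9 comparisons.

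Replicates 3 and 4 differed from replicates 1 and 2 in Junb. The labels do not say what libraries of the same number share, and this division was seen in earlier results of the same libraries, so its p-values describe these libraries and are no independent test. Junb measured 317, 280, 333 and 348 CPM in control replicates 1 to 4 and 282, 288, 336 and 342 CPM in the bivalent group. It measured 312, 309, 338 and 379 CPM in the agrin group, 321, 300, 366 and 399 CPM with agrin and 13-3B5xb12, and 306, 297, 310 and 318 CPM with agrin and 11-3F6xb12. In each treatment both later-numbered libraries were above both earlier-numbered ones. The mean was 301 ± 14.4 CPM in replicates 1 and 2 and 347 ± 27.4 CPM in replicates 3 and 4 (SD, n = 10 each).

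The fitted fold of Junb was 1.15 (95% interval 1.09 to 1.21), a log2 difference of 0.20 ± 0.04 (SE) with an edgeR adjusted p of 0.000240. The difference within a treatment ran from 0.06 on the log2 scale with agrin and 11-3F6xb12 to 0.30 with agrin and 13-3B5xb12. Without agrin with 13-3B5xb12 replicate 1 and control replicate 2 it was 0.19. Junb was 1 of 10 members past the threshold, against 13.1% of all genes (5.93% higher and 7.13% lower in replicates 3 and 4). At an unadjusted p under 0.05 by edgeR there were 2 of 10 members, against 24.4% of all genes. The members as a set thus passed no more often than all genes. A gene was above in all 5 treatments without overlap in 1.42% of genes. The overlapping gene Prdx2 was at 345 CPM in replicates 1 and 2 and 356 CPM in replicates 3 and 4 (log2 difference 0.05 ± 0.04, SE, edgeR adjusted p = 0.563).

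Jun had its higher mean in the same replicates and missed the threshold. Its mean was 58.9 ± 5.98 CPM in replicates 1 and 2 and 64.6 ± 6.52 CPM in replicates 3 and 4 (SD, n = 10 each), a log2 difference of 0.13 ± 0.06 (SE, edgeR adjusted p = 0.131). The later-numbered mean was higher in 5 of 5 treatments, as it was for 10.6% of all genes. Jun passed without agrin with 13-3B5xb12 replicate 1 (log2 0.16, edgeR adjusted p = 0.0367) and without both libraries that stood apart (log2 0.19, edgeR adjusted p = 0.00516). The other 8 members had log2 differences from -0.20 ± 0.12 (Atf3, SE) to 0.25 ± 0.65 (Fosb, SE), and all missed the threshold. Egr1 and Fos were at -0.12 ± 0.16 and -0.11 ± 0.16 (SE).

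**Figure D4:**
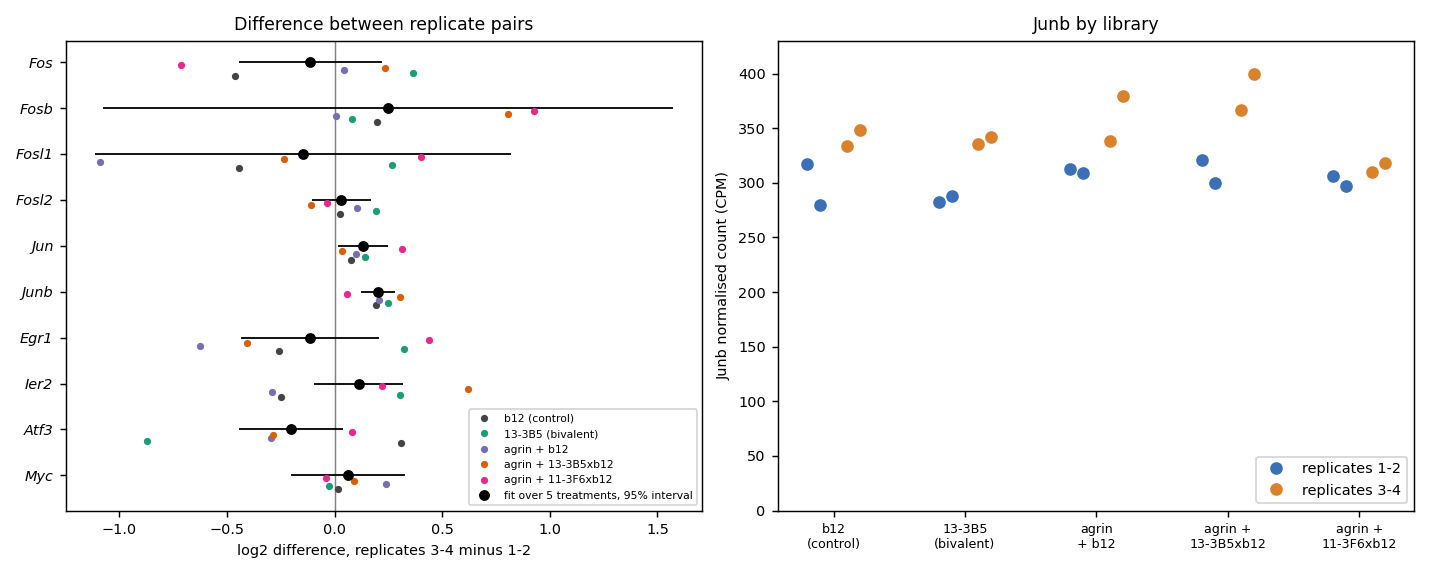
Left, log2 difference of each gene between replicates 3 and 4 and replicates 1 and 2, with the fitted value and 95% interval in black and 1 coloured point per treatment; right, Junb in CPM in each library, blue for replicates 1 and 2 and orange for 3 and 4. All 5 points of Junb lie above 0, and in each treatment on the right both orange points lie above both blue ones.

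Other measures moved along the same division. Mitochondrial genes held 30.2% to 39.1% of the counts in replicates 1 and 2 and 27.9% to 32.5% in replicates 3 and 4. Of 8 myotube markers, Ckm and Tnnt3 were lower in replicates 3 and 4, and the marker sum ran from 10197 to 11504 CPM in replicates 1 and 2 and from 9340 to 10810 CPM in replicates 3 and 4. Of 7 markers of myoblasts and dividing cells, 2 were lower, with sums of 141 to 216 CPM and 118 to 218 CPM. Of 4 fibroblast markers 3 were tested and 1 was lower, with sums of 701 to 988 CPM and 828 to 1024 CPM, and Thy1 was at 0 in 16 libraries. Of 8 liver markers only Hp could be tested and it was higher, with sums of 0.724 to 3.17 CPM and 0.728 to 19.0 CPM, and Alb was at 0 in 17 libraries. The part of any of these in the Junb difference was not tested.

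A dependence of the treatment response on the replicate division was examined with an interaction term, and 0 of 10 members passed the adjusted threshold with edgeR or with DESeq2's likelihood ratio test. Atf3 (unadjusted p = 0.0119) and Ier2 (unadjusted p = 0.0209) were under 0.05 before adjustment, both with an edgeR adjusted p of 0.966, while 4.85% of all genes were. After adjustment 0.00685% of genes passed, which is the single gene Myh4, a fast myosin heavy chain. Atf3 measured 13.5, 12.6, 6.32 and 7.97 CPM in bivalent replicates 1 to 4 and 10.2, 7.67, 9.77 and 12.3 CPM in the control. Its log2 difference between replicates 3 and 4 and replicates 1 and 2 ran from -0.87 in the bivalent group to 0.31 in the control. Ier2 measured 15.4, 9.04, 18.2 and 18.2 CPM with agrin and 13-3B5xb12 (log2 difference 0.62), 16.2, 13.9, 13.7 and 11.5 CPM in the control (-0.25) and 15.8, 14.9, 11.3 and 13.8 CPM in the agrin group (-0.29). For Ier2, replicates 3 and 4 were above replicates 1 and 2 without overlap in the first of these and also in the bivalent group (0.30), and below without overlap in the control and agrin groups. Each treatment sets only 2 libraries against 2, where separation is easily reached, and its share over all genes was not computed. Egr1 likewise was above in 2 treatments and below in 2 without overlap (interaction unadjusted p = 0.112 by edgeR).

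Genes that act with these 10 were taken from 7 lists. Of their genes 93 were tested, and in each of the 9 treatment comparisons 0 passed the adjusted threshold, with 0 to 6 at an unadjusted p under 0.05 (edgeR). Along the replicate division, 8 of 27 tested genes of a list of other immediate early genes passed, 4 higher and 4 lower in replicates 3 and 4, against 13.1% of all genes (5.93% higher and 7.13% lower). Their list median was 0.07 on the log2 scale, against 0.01 for all genes. Socs3, the feedback inhibitor of cytokine receptors, rose from 37.3 to 53.7 CPM (log2 0.51 ± 0.08, SE, edgeR adjusted p = 0.000120). Ccn1, a secreted matrix protein induced by serum, fell from 80.9 to 62.2 CPM (log2 -0.38 ± 0.05, SE, edgeR adjusted p = 6.39e-07), and Gadd45a, a growth arrest gene, also fell (log2 -0.27 ± 0.05, SE). The remaining 5 genes past the threshold, named after their values were seen, are Gadd45b, Gadd45g and Ier5, which were higher, and Nr4a1 and Egr2, which were lower.

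The other lists are also to be read against 13.1% of all genes past the threshold and 24.4% at an unadjusted p under 0.05. Among 16 tested bZIP partners of AP-1, 2 passed: Atf5 was higher (log2 0.30) and Nfe2l1 lower (log2 -0.20). Of 9 tested SRF cofactors and related factors that drive immediate early promoters 0 passed (edgeR, 1 at an unadjusted p under 0.05), the smallest adjusted p being 0.0636 for Elk3. Of 14 tested kinases of the ERK, JNK and p38 routes, Nras (log2 0.17) and Mapk9 (log2 0.19), which encodes JNK2, were higher. Of 9 tested feedback inhibitors of ERK, 3 were lower, Spry2 (log2 -0.43), Spry1 (log2 -0.32) and Dusp4 (log2 -0.30), and the list median was -0.27. In the network of Myc partners and antagonists, 2 of 10 tested genes passed. Mxd1, which competes with Myc for Max, fell from 28.2 to 16.5 CPM (log2 -0.78 ± 0.07, SE, edgeR adjusted p = 4.26e-10), and Mlx was higher (log2 0.25). Of 9 tested genes of the integrated stress response, to which Atf3 responds, Asns was the 1 that passed (log2 0.39 ± 0.05, SE, edgeR adjusted p = 2.24e-06).

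The members differed in their spread over libraries, which includes any difference between treatments and along the replicate division. Over 20 libraries the SD of Junb was 9.78% of its mean, where counting error alone would give 1.18%, and that of Jun was 10.9% against 2.72%. For Fos it was 29.2% against 11.2%, for Myc 18.5% against 10.4% and for Egr1 19.9% against 11.0%. Fosb and Fosl1 spread by 88.7% and 62.1% of their means, of which counting would give 38.5% and 28.8%.

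**Figure D5:**
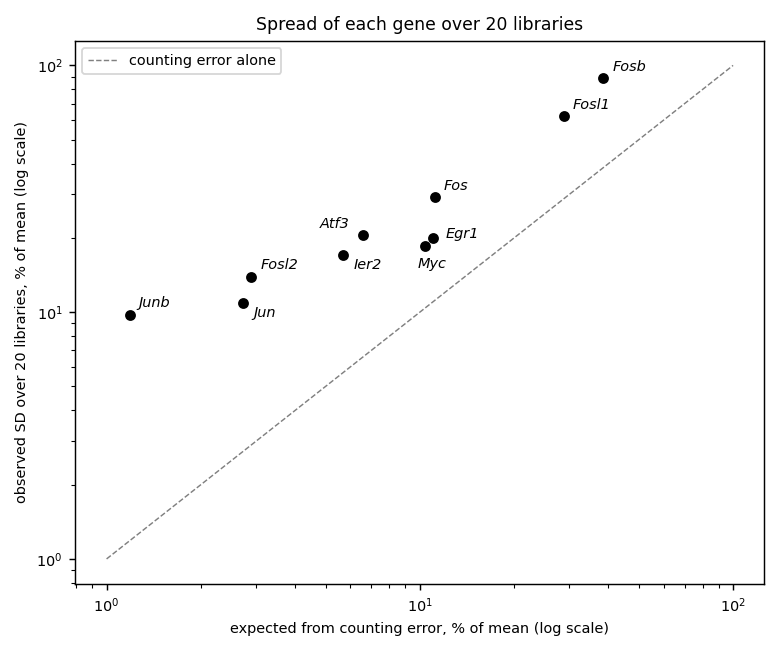
Observed SD of each gene over 20 libraries, as a percentage of its mean, against the percentage expected from counting error alone, both on log axes; the dashed line marks equality. All 10 genes lie above the line, from Junb at 9.78% observed and 1.18% expected to Fosb at 88.7% observed and 38.5% expected.

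Most correlations among the 10 genes were weak. Of the 45 pairs of members 35 had a positive Pearson correlation of log2 CPM over the 20 libraries, with a median of 0.10, and 2 pairs exceeded 0.5. These were Fosl2 with Jun (0.54) and Fosb with Ier2 (0.52). The genes outside the set whose log2 CPM followed the mean of the members most closely were Myh9 (0.81), Abca1 (0.76), Dnttip2 (0.76), 4933404O12Rik (0.75) and Mta1 (0.74), out of 11141 candidates. For single members the closest genes were Ybx1 for Junb (0.90), Rrbp1 for Fosl2 (0.84), Qrich1 for Jun (0.84), Srfbp1 for Atf3 (0.78), Gm13415 for Ier2 (0.77), Mrps27 for Myc (0.75), Smad7 for Fosb (0.73), Azin2 for Egr1 (0.72), Mrs2 for Fos (0.69) and Clpb for Fosl1 (0.68). With treatment and replicate division removed, the value for Junb and Ybx1 was 0.47. The points share libraries, depth and the replicate division, so these values are descriptions.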

How the data were processed

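The authors deposited 1 table of whole-number counts per gene and library, not normalised, with Ensembl IDs and symbols. Per the submitters' processing notes, the tools were Trim Galore 0.6.6, cutadapt 2.10, STAR 2.7.6a, HTSeq 0.12.4 and DESeq2 1.32.0 with build GRCm38. Annotation release, strand setting and handling of duplicate or multiply mapped reads are not given in the sources used here. Per the labels' protocols, libraries were made from total RNA with a stranded kit after ribosomal RNA removal.

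The tests used edgeR 4.0.16 under R 4.3.3. Genes passed filterByExpr (minimum count 10, minimum total 15), libraries were scaled by TMM, and a quasi-likelihood model with treatment as its only factor was fitted to all 20 libraries (15 residual degrees of freedom). Tests were two-sided with Benjamini-Hochberg adjustment over all 14605 genes at 0.05. The SE of a log2 change is its size over the root of the F statistic. CPM is the count over the TMM-scaled total of the tested genes, and log2 CPM used a prior count of 2. Replicates 3 and 4 were set against 1 and 2 with treatment in the model. Lengths are exon unions of GENCODE M21, in which 26667 gene IDs were found. Intervals cover 95%, and counting limits cover counting error only, since read copies made by PCR are not independent molecules. The scripts were tested on simulated data.

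The members, gene lists, comparisons and the replicate division were chosen with earlier results of these data known. All members are named, and of each list the up to 3 genes with the smallest p along the replicate division. Genes of like pattern had a mean log2 CPM above 1. Replicate numbers come from the sample titles. Libraries with the same number deviated together with a mean correlation of 0.20, as did libraries of the same replicate division with other numbers (0.20). Every pair exceeded 0.1 in 4 of 9 comparisons (bivalent with control and with agrin, and agrin with either monovalent antibody and with b12). The tests of all 9 comparisons nevertheless left the libraries unpaired, except where a replicate block is named. The chi-square per gene between replicates was at least 5.17, so none was a duplicate. The alternatives were the replicate block, the division as covariate, DESeq2 1.42.0, its size factors, no filter or another filter on low counts, fits to the compared groups alone, leaving out abundant genes, and leaving out libraries.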

Additional observations from a re-analysis of the deposited data

Results flagged for a closer look

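In 3 of 50 sets of 4 replicates (10 genes in 5 treatments), 1 library lay far from the others of its treatment, where chance gives about 2.5. Fos in agrin with 13-3B5xb12 replicate 3 was at 4.71 CPM, above the other replicates at 3.23 to 3.33 CPM. Egr1 in bivalent replicate 2 was at 2.64 CPM, below the others at 3.89 to 4.07 CPM. Atf3 in agrin replicate 3 was at 8.35 CPM, below the others at 12.1 to 12.7 CPM, and that library also had the highest sum of liver markers, 19.0 CPM.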

How the results depend on the processing

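Across the alternatives no member passed the adjusted threshold in any treatment comparison, in 1600 recomputed member results. In 96 of these the sign differed from the value reported, none of them past the threshold. Junb passed along the replicate division in all 28 alternatives (log2 0.19 to 0.22, adjusted p 2.95e-06 to 0.000923), and 2 members passed in place of 1 without both libraries that stood apart. Leaving out 1 library at a time gave 1 to 2 members there, and 2 came without agrin with 13-3B5xb12 replicate 1.

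Counts over all genes, 0 in every treatment comparison, moved as follows, and the cause was not tested. With the replicate block, 2 genes passed for 11-3F6xb12 against b12 beside agrin, 3 for agrin with 11-3F6xb12 against control, 5 between the monovalent antibodies and 2 for any treatment difference, and the block changed no call of a member. Along the replicate division it gave 1850 genes against 1908, with 1817 shared. With the replicate division as a covariate these were 2, 3, 10 and 5. With no filter on low counts 4 genes passed for agrin against control, 2 for bivalent against control, 7 for bivalent against agrin, 6 and 13 for 13-3B5xb12 and 11-3F6xb12 against b12 beside agrin, and 3 and 13 for the same groups against control. There were 27 between the monovalent antibodies, 2 for bivalent against agrin with 13-3B5xb12, 50 for any treatment difference and 61 for the interaction. DESeq2 gave 2 between the monovalent antibodies and 3 for the interaction, which was 1 as reported, 4 without both libraries that stood apart, and 0 to 182 with 1 library left out, the last without agrin with 13-3B5xb12 replicate 2 (41 without control replicate 1). Of 20 libraries 11 correlated best with their own number. The mean correlation was 0.20 for the same number and 0.20 for other numbers of the same replicate division, so these values do not show pairing by number. Fosb and Fosl1, with at most 24 and 26 counts per library, had the widest intervals.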
